A study of Mus musculus with 29 samples.

Results

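The Csf1r locus was taken as every peak and every chromatin-state segment that overlaps positions 61255000 to 61300000 of chromosome 18 in the mm9 build of the mouse genome, with the gene placed near 61265000 to 61291000. These limits give 10 kb before the gene, the 26 kb of the gene and 9 kb after it. They hold 68 of 1199111 deposited peak lines, of which 49 are histone peaks and 19 are PU.1 summits, and 142 of 2070063 state segments. Gene limits are approximate, since no mm9 annotation was used, and exons and introns were not mapped. In the gene order of GRCm38.p6, Pdgfrb is the protein-coding gene before Csf1r and Hmgxb3 the one after it, and Mir6983 and Gm52352 lie inside it.

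Csf1r encodes the receptor tyrosine kinase for colony-stimulating factor 1 and interleukin-34, on which macrophages depend for differentiation and survival. PU.1, the ETS-family transcription factor of myeloid cells, binds its promoter and an enhancer inside the gene close to its start, known as the Fms intronic regulatory element. H3K4me3 marks active promoters, H3K4me1 promoter flanks and enhancers, and H3K27ac both when active. H3K79me2 and H3K36me3 follow transcribed genes, the first towards their start, H3K36me2 lies over genes and the space between them, and H3K27me3 marks Polycomb repression.

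All libraries used are chromatin immunoprecipitations of RAW264.7, an established line of mouse macrophage-like cells that arose by transformation with Abelson murine leukemia virus. The groups with drug were cells given lipopolysaccharide (LPS) at 100 ng/ml for 4 h after 1 h with flavopiridol, and cells given flavopiridol without LPS. For the latter the labels give the 1 h of pretreatment but no total time in the drug. The other groups were cells given LPS, also at 100 ng/ml, for 1 h or 4 h, and untreated cells. LPS is the bacterial product that activates macrophages through Toll-like receptor 4, and flavopiridol inhibits the elongation kinase CDK9. Each of 7 histone marks was mapped without drug and after each LPS time, H3K4me1 and H3K36me2 also with flavopiridol, and PU.1 in untreated cells, with 1 library per target and group. There is therefore no spread between replicates and no p-value, every difference is one between single libraries of 1 cell line, and the read depth is unknown because the peak lists carry no totals. The flavopiridol libraries and those of H3K27me3 are numbered as a separate set of samples in the series. The labels do not say whether they were made apart, so drug and set cannot be told apart. No input with flavopiridol is among the samples.

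In untreated cells almost the whole gene was marked as active, and it had no H3K27me3. H3K27ac covered 83.6% of the locus, H3K4me1 75.9%, H3K36me3 69.7%, H3K79me2 31.5%, H3K36me2 22.3% and H3K4me3 16.0%. The same lists covered 3.17%, 7.28%, 9.40%, 3.84%, 10.7% and 1.45% of chromosomes 1 to 19 and X. No H3K27me3 peak was listed in the locus in untreated cells or at either LPS time, while that mark covered 13.7%, 14.4% and 16.1% of those chromosomes. The nearest H3K27me3 peak ended 13.5 kb before the locus in untreated cells, 14.1 kb before it at 1 h and 13.3 kb before it at 4 h.

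**Figure D1:**
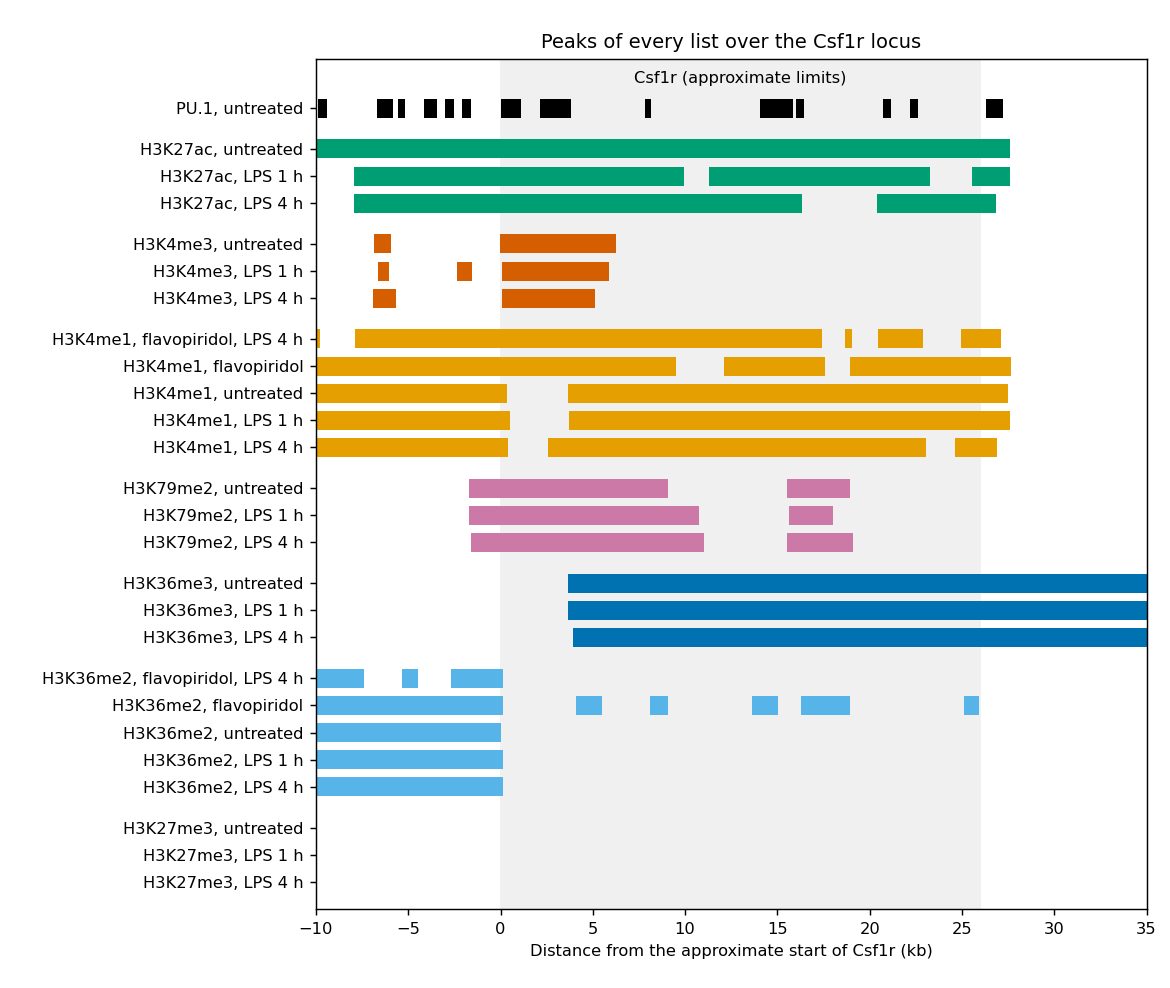
Peaks of the 26 lists over the Csf1r locus, drawn as bars against the distance in kb from the approximate start of the gene, with the gene's limits shaded and 1 row per library. PU.1, H3K27ac and H3K4me1 run on both sides of the gene start, H3K36me2 stops at the start in every list but that of flavopiridol alone, H3K36me3 begins inside the gene and runs past its end, and the H3K27me3 rows are empty.

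The marks divided the locus at the gene start. H3K36me2 covered all 10 kb before the gene in untreated cells, within a peak of 22255 bp that ended at 61265050, and 1.00% of the first 5 kb of the gene. H3K4me3 began at 61264951 and ran over 6281 bp, so that it covered 100% of those first 5 kb and 5.86% of the rest of the gene. H3K79me2 began before the start, at 61263314, in a peak of 10784 bp, and came back in a peak of 3392 bp from 61280542 to 61283933. H3K36me3 began 3649 bp into the gene, at 61268650, and continued without a break for 66.5 kb, which is 44.1 kb past the gene's approximate end, on the side of Hmgxb3. Its length in the list cannot be divided between the neighbouring genes without an annotation.

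A smaller H3K4me3 peak lay well before the gene. It ran from 61258167 to 61259071 in untreated cells, a width of 905 bp, and it was 600 bp wide at 1 h of LPS and 1247 bp wide at 4 h. A PU.1 peak with 2 summits, at 61258572 and 61258885, lay in the same place, and H3K4me3 covered 88.1% of it before LPS, 70.1% after 1 h and 100% after 4 h. Whether a transcript starts there cannot be seen from these files.

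PU.1 was bound at 14 intervals with 19 summits across the locus. There were 6 intervals before the gene, 2 in its first 5 kb, 5 in the rest of it and 1 after it. Of 58632 other tiles of 45 kb along the chromosomes, 0.242% held as many PU.1 intervals by their midpoint, and the median tile held 1. Fold enrichment over the caller's background, which is the authors' value for each summit, was 3.13 to 45.1 for the highest summit of each interval, with a median of 10.2 against 6.33 over all 99565 intervals of the list.

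A group of 3 sites stood well above the other 11. The strongest summit, at a fold enrichment of 45.1, was at 61268387, 3386 bp after the gene start and within an interval of 1700 bp (61267131 to 61268830), in the stretch where the intronic enhancer is described. The next, at 40.8, was at 61265474, 473 bp after the start, in an interval of 1086 bp (61265024 to 61266109) that lies at the promoter. The last of them, at 36.9, was at 61280428, 15427 bp after the start, in an interval of 1780 bp (61279045 to 61280824) with 3 summits. By fold enrichment these intervals ranked 546, 1069 and 1822 of 99565, and the fourth interval of the locus was at 14.5. Intervals at or above 36.9 numbered 1822 in the list, and 5 of the 58632 other tiles held 3 or more of them. Both limits, 36.9 and 3, were taken from the locus itself, so this count describes it and is not a test.

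**Figure D2:**
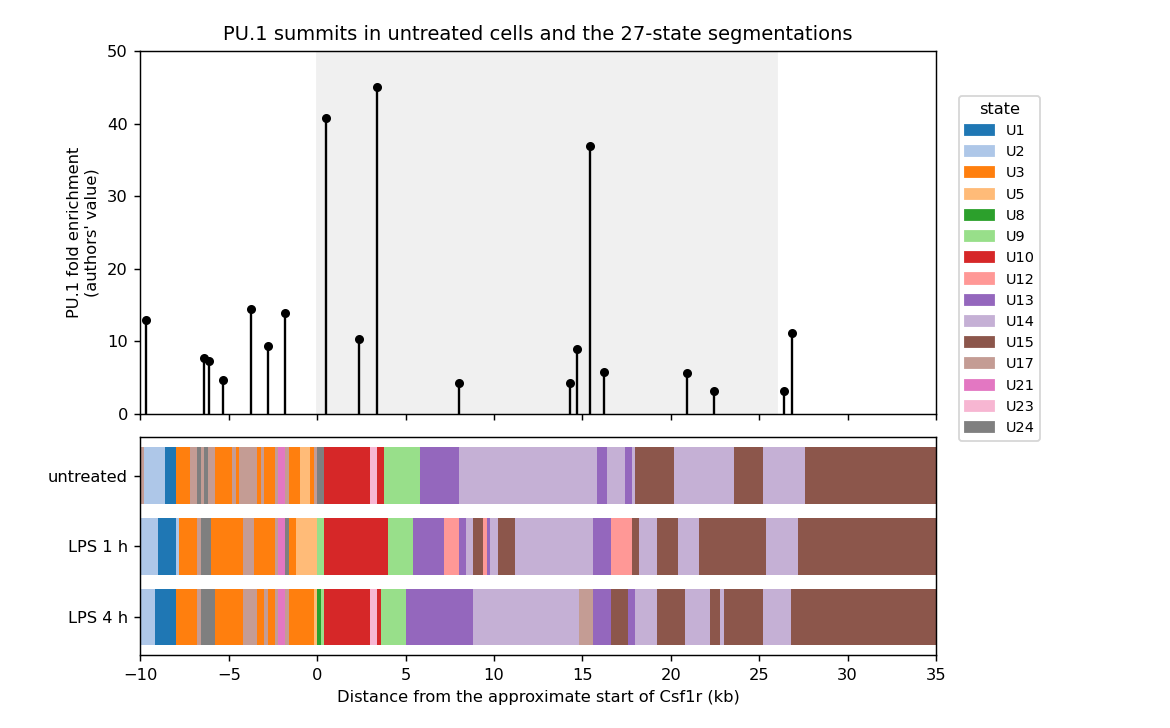
Upper panel, fold enrichment of the 19 PU.1 summits of untreated cells (the authors' value, linear axis) against the distance in kb from the approximate start of Csf1r, with the gene shaded. Lower panel, the 27-state segmentation in untreated cells and at LPS 1 h and 4 h, 1 colour per state. The sites at 40.8 and 45.1 stand in states 10 and 23 of untreated cells, and that at 36.9 stands in state 14.

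The 3 strong sites lay in different chromatin. In untreated cells the promoter and the intronic site were covered entirely by H3K4me3, H3K27ac and H3K79me2, and by H3K4me1 over 28.8% and 8.94% of their length. The site at 61280428 had no H3K4me3 in any list and was covered entirely by H3K4me1, H3K27ac and H3K36me3. H3K79me2 covered 15.9% of it, and the second H3K79me2 peak of the gene begins inside it. None of the 3 was covered by H3K36me2 beyond 2.49% in untreated cells. The 6 intervals before the gene were all inside H3K36me2, H3K4me1 and H3K27ac.

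H3K27ac and H3K4me1 each met all 14 PU.1 intervals in untreated cells, against 45.2% and 69.6% of all PU.1 intervals of the list. H3K36me2 met 7 of the 14 (31.4% of all), H3K36me3 also 7 (13.7%), H3K79me2 6 (17.2%), H3K4me3 3 (25%) and H3K27me3 0 (10.8%). The intervals of the locus share the same few wide peaks, so they are not independent of each other. At LPS 1 h and 4 h, H3K27ac met 13 of them. The one outside it at both times was the farthest before the gene, at 61255107 to 61255577. PU.1 itself was not mapped after LPS or flavopiridol in the files used here.

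**Figure D3:**
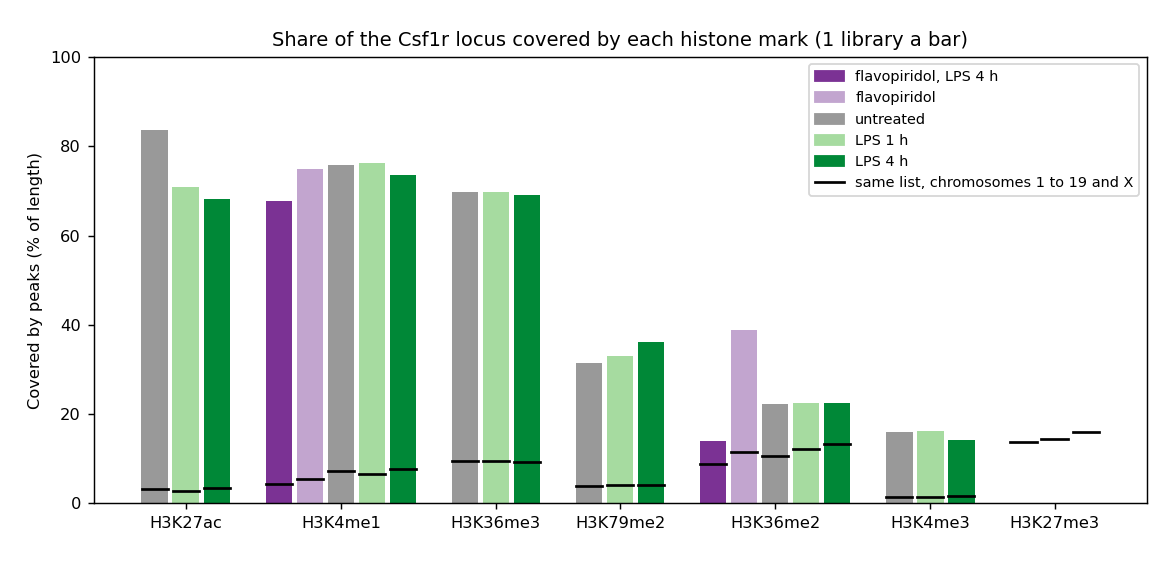
Share of the 45 kb locus covered by peaks of each histone mark (y axis, in % of length, 1 bar per library), with a black line at the share of chromosomes 1 to 19 and X that the same list covers. H3K27ac stands at 83.6% in untreated cells and at 71.0% and 68.3% after 1 h and 4 h of LPS, H3K36me2 at 38.8% with flavopiridol against 22.3% in untreated cells, and H3K27me3 has no bar.

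H3K27ac was the mark whose extent in the locus differed most over the LPS course. In untreated cells it was 1 unbroken peak of 37678 bp, from 61254942 to 61292619, that covered the gene and all 10 kb before it and was the 18th widest of 31472 peaks. At 1 h it was 3 peaks of 17854, 12009 and 2070 bp, with gaps of 1366 and 2230 bp inside the gene. At 4 h it was 2 peaks of 24275 and 6477 bp, with a gap of 4029 bp from 61281341 to 61285369. Both times also lacked the first part of the domain, since the first peak began at 61257063 at 1 h and 61257066 at 4 h. The share of the locus under H3K27ac was 83.6% before LPS, 71.0% after 1 h and 68.3% after 4 h, and the gene's first 5 kb were covered entirely in all 3.

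Such breaks were common among wide H3K27ac peaks. Of the 170 untreated peaks of at least 20000 bp, 60.0% met 2 or more peaks at 1 h and 49.4% did so at 4 h. At 1 h, 50 of the 170 met 3 or more, as the Csf1r domain did, itself included. The peaks at 1 h kept 84.8% of the length of the Csf1r domain (median of the 170, 89.1%), and those at 4 h kept 81.6% (median 92.7%). At 1 h 65 of the 170 kept no more of their length than this one, itself included, and at 4 h 36 did. The difference in the share covered was −12.6 percentage points at 1 h and −15.3 at 4 h. Of the 45 kb tiles with enough H3K27ac in untreated cells to lose as much, 412 of 4949 (8.32%) did so at 1 h, with a median difference of −3.32 points, and 158 of 3947 (4.00%) at 4 h, with a median of −0.907. This set of tiles was chosen after the data were seen. The whole list covered less at 1 h (2.77% of the chromosomes) and more at 4 h (3.44%) than in untreated cells (3.17%), so at 4 h the locus and the list moved in opposite directions. No H3K27ac peak of the locus counted as gained or lost, meaning a peak with no overlap of 1 bp or more in the other list. Over the whole lists 9.05% of the peaks at 1 h were gained and 18.8% of the untreated peaks lost, and 21.3% and 12.9% at 4 h.

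The 3 H3K4me3 lists shared a domain at the gene start that was narrower after LPS. Its width was 6281 bp without treatment, 5837 bp after 1 h and 5080 bp after 4 h, and its far end was at 61271231, 61270898 and 61270144. In all, H3K4me3 covered 16.0% of the locus before LPS, 16.2% after 1 h and 14.1% after 4 h. The difference at 4 h was −1.91 points, and 2.68% of tiles with at least that much H3K4me3 in untreated cells lost as much. At 1 h a further peak of 843 bp appeared, from 61262626 to 61263468, and covered the whole PU.1 interval at 61262941 to 61263396. It was the only peak gained of 3 in the locus at 1 h, where 5.69% of the list was gained and 7.85% of the untreated list lost, and it was not listed at 4 h. At 4 h none was gained or lost, against 9.64% and 6.55% of the lists.

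H3K4me1 lay on both sides of the gene start. It covered 33.2% of the first 5 kb of the gene in untreated cells, 35.3% at LPS 1 h and 56.1% at LPS 4 h. Its first peak ran a short way past the start, so that 28.8% of the promoter PU.1 interval was inside it in untreated cells and 43.8% at LPS 1 h. In untreated cells its 2 peaks, of 15966 and 23824 bp, were parted by a gap of 3342 bp, from 61265337 to 61268678, that H3K4me3, H3K27ac and H3K79me2 covered entirely and PU.1 intervals covered over 69.4%. The gap was 3233 bp at 1 h and 2195 bp at 4 h, where the second peak began at 61267601, and by then H3K4me1 covered 34.3% of the untreated gap and 72.4% of the strongest PU.1 interval. At 4 h a further gap of 1534 bp opened near the gene's end. The share of the locus under H3K4me1 was 75.9% before LPS, 76.3% after 1 h and 73.7% after 4 h, and no peak was gained or lost, against 7.27% gained and 10.7% lost in the lists at 1 h and 15.0% and 6.55% at 4 h.

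With flavopiridol the promoter gap of H3K4me1 was gone. Cells given flavopiridol alone had 1 peak of 19968 bp across it, from 61254535 to 61274502, and cells given flavopiridol and then LPS had 1 of 25323 bp, from 61257108 to 61282430. H3K4me1 thus covered 100% of the gene's first 5 kb in both drug-treated lists, against 33.2% in untreated cells and 56.1% at LPS 4 h. Other gaps lay deeper in the gene. With flavopiridol alone they were 2582 bp (from 61274503) and 1349 bp (from 61282580) wide. With flavopiridol and LPS they were 1253 bp (from 61282431), 1406 bp (from 61284020) and 2041 bp (from 61287908), the last of which contains the gap of LPS 4 h without the drug, and a further gap of 1897 bp lay before the gene, from 61255211. The covered share of the locus was 67.8% with flavopiridol and LPS and 75.0% with flavopiridol alone, against 73.7% with LPS 4 h alone and 75.9% in untreated cells. In the whole lists these shares were 4.44% and 5.45%, against 7.59% and 7.28%.

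A filled gap of this kind was seen at many other places with H3K4me3, which were not checked for transcript starts. Untreated cells had 5193 gaps of 1000 to 6000 bp between H3K4me1 peaks that met an H3K4me3 peak, and 13.0% of them were at least as wide as that of Csf1r. H3K4me1 covered 27.9% of these gaps entirely after flavopiridol and LPS and 34.4% after flavopiridol alone, against 3.85% at LPS 1 h and 5.28% at LPS 4 h. Among gaps of at least 2000 bp, a limit added after these values were seen, the shares were 18.1% and 23.0% with the drug and 0.864% and 1.57% at LPS 1 h and 4 h. At LPS 4 h, 6.80% of the gaps were covered over as large a part as the 34.3% seen at Csf1r. H3K4me3, H3K27ac and PU.1 were not mapped with flavopiridol in the files used here. The drug-treated H3K4me1 lists also held weaker calls, since 4.02% and 12.8% of their peaks reached a −log10 q of 5, against 53.0% at LPS 4 h and 54.4% in untreated cells, and the part of this in the filled gaps was not tested. None of the H3K4me1 peaks of the locus reached it in untreated cells or with the drug, so neither the gap nor its filling can be seen among calls of that strength. The deposited q values of single broad peaks may be out of step with their intervals, and this limits both statements.

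**Figure D4:**
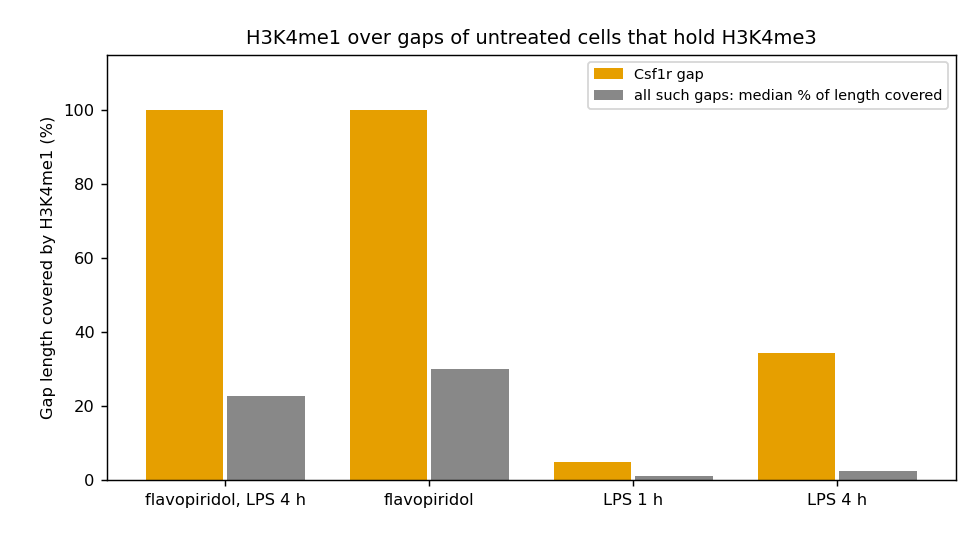
H3K4me1 over gaps that lacked it in untreated cells and held H3K4me3, as the % of gap length covered in each later list. Orange bars are the gap of 3342 bp at the Csf1r promoter and grey bars the median of all 5193 such gaps. The Csf1r gap was covered entirely in both lists with flavopiridol, over 4.88% at LPS 1 h and over 34.3% at LPS 4 h, where the medians were 22.8%, 30.2%, 1.13% and 2.51%.

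H3K4me1 peaks of the locus with flavopiridol all overlapped peaks without it, and the other way round. Of the whole lists, 14.2% of peaks were gained and 20.9% lost with flavopiridol alone against untreated cells, 11.4% and 33.9% with flavopiridol and LPS against LPS 4 h, and 11% and 21.8% with flavopiridol and LPS against flavopiridol alone. These comparisons share lists.

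H3K36me2 kept its boundary at the gene start through the LPS course. Its 1 peak ended at 61265050 before LPS, 61265162 after 1 h and 61265128 after 4 h, and it covered 22.3%, 22.6% and 22.5% of the locus. No part of the gene beyond its first 5 kb was covered in these lists. In the same lists the mark covered more of the chromosomes at each time, at 10.7%, 12.1% and 13.2%, and the median tile with H3K36me2 gained 3.43 points at 1 h and 5.75 at 4 h, where the locus differed by 0.249 and 0.173 points. No peak of the locus was gained or lost, against 20.4% and 8.68% of the lists at 1 h and 25.2% and 6.01% at 4 h.

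With flavopiridol alone H3K36me2 was also listed inside the gene. The list held 5 further peaks there, of 1413, 957, 1424, 2671 and 813 bp, the first from 61269077 and the last up to 61290933, and none met a peak in untreated cells. The mark covered 28.6% of the gene with flavopiridol, against 0.192% in untreated cells, and 38.8% against 22.3% of the locus, a difference of 16.4 points. Of tiles with the mark and room for such a rise, 15.6% had one as large. Each of the 5 tiles most like the locus over the histone lists, given at the end, also had more H3K36me2 with flavopiridol, at 50.1% against 26.1%, 42.6% against 32.9%, 61.3% against 33.4%, 55.7% against 15.5% and 60.3% against 25.6% in untreated cells. Those tiles were chosen partly by closeness to the locus in these same H3K36me2 lists, so the shared direction is not independent. Of the list with flavopiridol 28.7% of peaks were gained, and 18% of the untreated list was lost. One of the 5 peaks, from 61278611 to 61280034, covered 55.6% of the third strong PU.1 interval but not its highest summit.

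After flavopiridol and LPS these 5 peaks were not listed. H3K36me2 then lay in 3 peaks before the gene, of 12374, 867 and 2832 bp, and covered 14.0% of the locus, against 22.5% at LPS 4 h without the drug and 38.8% with the drug alone. Of the 10 kb before the gene it covered 61.2%, against 100% in each of the other 4 lists. The 5 lost peaks compare with 29.3% of peaks lost over the list of flavopiridol alone, and 9.92% were gained. Against LPS 4 h, 12.1% of the whole list was gained and 33.8% lost, with none in the locus. The change in the locus between LPS 4 h and no LPS was −24.8 points with flavopiridol and 0.173 points without it. Over the chromosomes the list covered 8.72% after flavopiridol and LPS, against 13.2% at LPS 4 h and 11.5% with flavopiridol alone. Against LPS 4 h the locus differed by −8.55 points, and the median tile with at least that much of the mark at LPS 4 h by −13.4. Against flavopiridol alone, 12.1% of tiles with enough of the mark lost as much as the 24.8 points of the locus. The 5 like tiles were at 44.1%, 37.2%, 39.3%, 25.4% and 29.3% after flavopiridol and LPS, each lower than with flavopiridol alone. Both of these lists were part of the measure that chose the tiles. The share of H3K36me2 calls that reached a −log10 q of 5 was 0.0390% after flavopiridol and LPS and 0.197% with flavopiridol, against 32.5% at LPS 4 h and 9.02% in untreated cells, and the part of this in the differences was not tested.

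The 2 elongation marks differed by fewer points over the LPS course than H3K27ac. The start of H3K36me3 was 61268650 both before LPS and after 1 h, and 61268925 after 4 h, and the mark covered 69.7%, 69.7% and 69.1% of the locus. H3K79me2 covered 31.5% before LPS, 33.0% after 1 h and 36.1% after 4 h. Its first peak was 10784, 12440 and 12670 bp wide, and its far end lay deeper in the gene at each time, at 61274097, 61275735 and 61276048. The gap to the second H3K79me2 peak was 6444, 4870 and 4479 bp. In 18.8% of tiles with H3K79me2 the difference at 4 h was at least the 4.60 points seen here, and the median was 1.17. No peak of either mark was gained or lost in the locus. For H3K36me3 the lists gained 11.8% and lost 10.9% at 1 h and 11.5% and 14.3% at 4 h, and for H3K79me2 16.6% and 9.24% at 1 h and 19.3% and 8.76% at 4 h.

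The deposited segmentations give chromatin states, each a number per 200 bp step, and the labels tie them to the same histone libraries. The segmentations do not follow the peak lists everywhere. State 14, which genome-wide in untreated cells was covered to 97.6% by H3K4me1, 99.0% by H3K36me3 and 52.2% by H3K27ac, took 32.9% of the locus and 0.311% of the chromosomes. State 15, with H3K36me3 over 99.9% and H3K4me1 over 3.60%, took 24.9% and 5.20%. In the locus, its untreated segment from 61283001 to 61285200 lay inside unbroken H3K4me1 and H3K27ac peaks, so states and peak lists differ there. State 10, with H3K4me3 over 100% and H3K79me2 over 98.5%, held the promoter site, and state 3, with H3K4me1, H3K27ac and H3K36me2 each over 97.6% or more, was the most common state before the gene. State 17, with H3K4me1 over 99.9%, H3K27ac over 98.7% and PU.1 over 51.0%, took 7.11% of the locus. PU.1 was mapped in untreated cells only, so a later change to this state does not show a change of PU.1.

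State 14 took 32.9% of the locus before LPS, 20.4% after 1 h and 23.1% after 4 h, and state 15 took 24.9%, 32.9% and 30.2%. The most common change from untreated cells was from state 14 to 15, over 4600 bp at 1 h and 3400 bp at 4 h. Listed H3K4me1 covered 100% of the gene beyond its first 5 kb in untreated cells and at 1 h, and 92.7% at 4 h. H3K27ac covered 100%, 82.9% and 80.8% of that part. The stretch from 61273801 to 61274400, in state 14 in untreated cells and 15 at 1 h, lay inside a listed H3K27ac peak at 1 h. A stretch with the same change, from 61275201 to 61276200, lay in a gap between H3K27ac peaks. What underlies the change of state was not tested. Of the 225 steps, 69 (30.7%) had another state at 1 h than in untreated cells, 60 (26.7%) at 4 h, and 55 (24.4%) differed between 4 h and 1 h. Over the chromosomes, among steps not in the most common state (27) in both, 31.3%, 36.0% and 32.1% differed. The site at 61280428 was in state 14 both before LPS and after 1 h, and in state 17 after 4 h, and the site at 61265474 was in state 10 at each. The segmentation with 18 states, which has no LPS version here, put 34.2% of the locus in its state 12, covered to 99.8% by H3K36me3, and 23.6% in its state 11, with H3K4me1 and H3K36me3.

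Set beside 58632 other tiles of 45 kb, the locus stood highest for H3K27ac in untreated cells. There 21 tiles (0.0358%) were covered by H3K27ac as much, 51 (0.0870%) at 1 h and 114 (0.194%) at 4 h. For H3K4me1 the shares were 0.102% with flavopiridol and LPS and 0.106% with flavopiridol, against 0.518% at LPS 4 h and 0.455% in untreated cells, and 0.302% at LPS 1 h. H3K4me3 was matched in 1.22%, 1.15% and 2.26% of tiles over the LPS course, H3K79me2 in 4.50%, 4.63% and 4.24%, H3K36me3 in 4.52%, 4.56% and 4.34%, and H3K36me2 in 16.4%, 18.4% and 19.8%. These shares describe where the locus lies and are not a test.

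**Figure D5:**
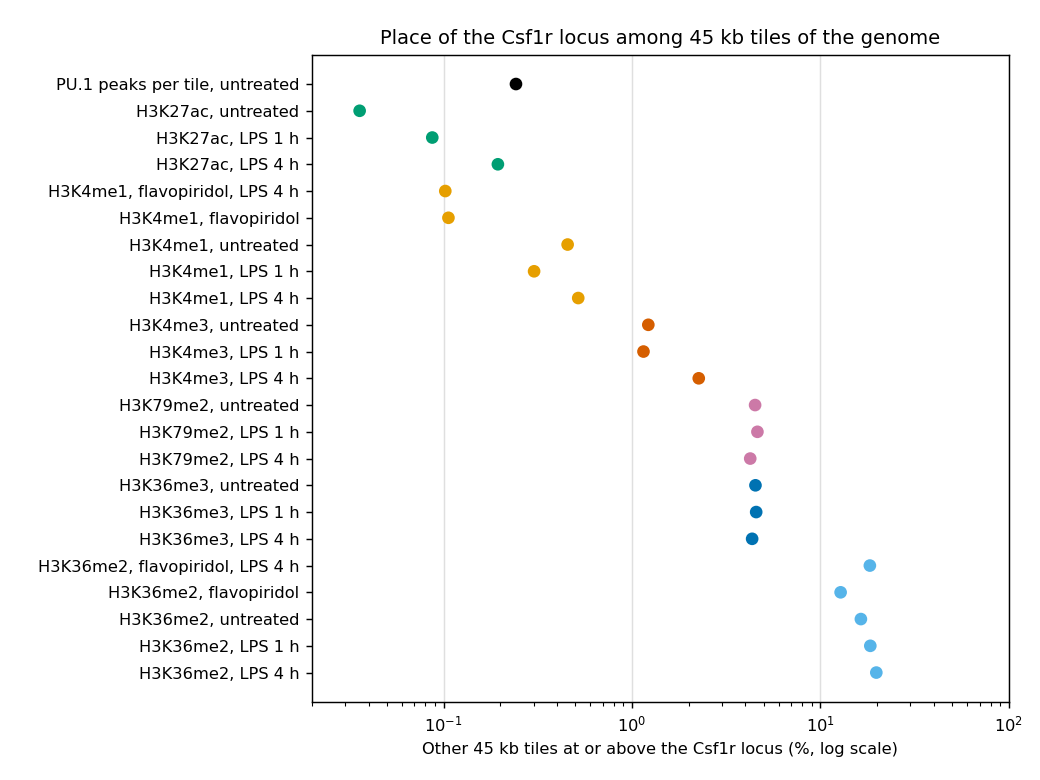
Share of the 58632 other 45 kb tiles of chromosomes 1 to 19 and X that were covered at least as much as the Csf1r locus (x axis, %, log scale), for each histone list with a peak there, and for PU.1 the share with as many intervals. Points farther left mean fewer such tiles. H3K27ac in untreated cells is at 0.0358% and H3K36me2 lies between 12.8% and 19.8%.

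The tiles most like the locus over the 25 histone lists, by the mean absolute difference in percent covered, also held many PU.1 intervals. PU.1 was not part of the measure. However, 69.6% of all PU.1 intervals overlapped H3K4me1 in untreated cells and 45.2% overlapped H3K27ac. The PU.1 counts are therefore not independent of the choice of tiles. The closest, on chromosome 11 (114750001 to 114795000), differed by 7.11 points on average, against a median of 42.7 over all tiles, and held 16 PU.1 intervals. The next lay on chromosome 8 (74655001 to 74700000), at 7.64 points and 9 intervals, chromosome 14 (31410001 to 31455000), at 8.31 and 13, chromosome 7 (108495001 to 108540000), at 8.38 and 15, and again chromosome 8 (26145001 to 26190000), at 8.47 and 11. The share under H3K27ac in the closest tile was 81.1% without treatment, 77.2% after 1 h of LPS and 78.6% after 4 h, and in the last tile 73.5%, 63.9% and 70.6%. In the other 3 it was higher after 4 h than without treatment, at 80.1% against 68.6%, 77.4% against 74.9% and 74.1% against 66.7%. Of the 5, only the last had H3K27me3, over 4.74% in untreated cells. These tiles are given by position, without genes.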

How the data were processed

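Peaks of RAW264.7 cells were used as deposited, from 26 of 29 samples. The 3 input samples were not analysed here. The submitters' processing notes name Bowtie 1.0.1, the mm9 build and MACS2. No source used here gives call settings, control library, pooling or depth. For each peak the authors deposited a score, a fold enrichment (a ratio over background) and a −log10 p and −log10 q. The authors also deposited 4 segmentations, 3 with 27 states and 1 with 18.

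Intervals carry the histone results: between untreated and LPS 4 h lists the deposited fold of overlapping broad peaks gave, over peaks, Spearman's rho of 0.0481 to 0.406, and their width 0.573 to 0.915, so the deposited values of single broad peaks are not reported and serve only as a filter among the alternatives. Overlapping peaks were merged and covered length was taken over the window, the gene limits and consecutive 45 kb tiles of chromosomes 1 to 19 and X. Tiles on chromosome 18 start from the window. Coordinates are 1-based mm9 positions. All peaks overlapping the window by 1 bp are members, and the 5 tiles closest in covered share are named. The locus and the comparisons were chosen with earlier results of these data known. The gaps of H3K4me1 and the breaks of H3K27ac were set beside all such places after they were seen here. Gene lists were not run, since no mm9 annotation was used. Shares were computed in Python 3.11.15 with numpy 2.4.6, pandas 2.3.3, scipy 1.17.1 and matplotlib 3.10.9, and the interval functions were tested on simulated data.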

Additional observations from a re-analysis of the deposited data

Results flagged for a closer look

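H3K36me2 over the locus was lower with LPS for 4 h in cells with flavopiridol and nearly the same in cells without it. The covered share was different by −24.8 percentage points after flavopiridol and LPS against flavopiridol alone, and by 0.173 points after LPS against untreated cells, a difference of −25 points between the effects. With 1 library in each group the difference was not tested, and most of it lies in the 5 peaks inside the gene that were listed with flavopiridol alone. The 5 tiles most like the locus also had less H3K36me2 after flavopiridol and LPS than after flavopiridol alone. They were chosen partly on these H3K36me2 lists, so this is not separate support. Of all tiles with enough of the mark with flavopiridol alone, 12.1% fell as much, and the median difference was −12.4 points.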

How the results depend on the processing

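No paired analysis was possible because each group is 1 library and the result comes from no test. With equal numbers of the widest peaks, none of the 20 differences in covered share changed sign, and 3 were 0 both ways. The locus is covered mostly by wide peaks, which this setting keeps, so it could change little there. Deposited q values of single broad peaks may be out of step with their intervals, so the filter on them is a doubtful one. With a −log10 q of at least 5, no H3K36me2 peak of the locus was left in any list, so the differences of 16.4 points (flavopiridol against untreated), −8.55 (flavopiridol and LPS against LPS) and −24.8 (flavopiridol and LPS against flavopiridol) all became 0.0, and gained peaks numbered 2 in place of 6 and lost peaks 1 in place of 5. PU.1 intervals that met H3K4me1 or H3K36me2 also numbered 0 under it, since it removed those untreated peaks. H3K4me1 at LPS 4 h against untreated cells was 5.13 points, in place of −2.18, since 1 peak at 4 h was left. H3K27ac differences did not move, and 19 of the 25 tile shares did. Within the gene limits alone, H3K36me2 with flavopiridol against untreated cells was 28.4 points, flavopiridol and LPS against LPS reversed to 0.1 points, the loss being before the gene, and H3K4me3 at 1 h was −1.52 in place of 0.209. There 37.7% of steps changed state at 1 h, and 32.3% between 4 h and 1 h. Of the 14 PU.1 intervals, 7 had a fold enrichment of at least 10. With the highest summit inside the peak, PU.1 intervals in H3K79me2 numbered 4 in place of 6 and in H3K4me1 12 in place of 14. With 50% overlap gained peaks numbered 7. Segments of at least 400 bp gave 22.5% to 27.3% of steps changed. With H3K4me1 gaps of 1000 to 10000 bp, added after the data were seen, 26.1% were filled after flavopiridol and LPS and 32.2% after flavopiridol. Depth is unknown, so weaker detection and less of a mark cannot be told apart.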
